A study of Mus musculus with 6 samples.

Results

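The genes for the subunits, activators, inhibitor and assembly chaperones of the proteasome were described in immortalized mouse fibroblasts (MF). Members were all genes whose symbol is Psm followed by a letter from a to g and a number, which gave 48 of the 19078 genes in the authors' deposited table. They were sorted by their known place in the complex into 7 subunits of the 20S alpha ring, 7 of the constitutive beta ring, 3 of the immunoproteasome and 2 of testis or thymus particles. The 19S cap gave 6 ATPases, 3 further subunits of the base and 8 subunits of the lid, and the remaining members were 3 chaperones of the cap, 4 of the core, and 5 activators or inhibitors.

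RNAseq was performed on poly(A)-selected RNA from 3 libraries of *Ms4a15* OE cells and 3 libraries of control cells. *Ms4a15* OE cells are a selected pool in which a guide and a CRISPR activation system switch on *Ms4a15*, a membrane protein gene, at its own locus. The sample labels call the controls wild type, and the study's methods describe cells with the empty virus. Cells of both groups carry the activation system, a conditional *Gpx4* allele and a Cre that tamoxifen turns on, and no treatment is named for these libraries. The value described for each gene is the authors' mean of normalized counts over all 6 libraries. Such a mean pools the 2 groups and carries no SD, and the table's own comparison of the groups was not used. The levels therefore describe these fibroblasts as a whole, not an effect of *Ms4a15* OE, and *Ms4a15* itself, with a mean of 638 over both groups, could not serve as a check of the labels.

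The proteasome is the protease that degrades proteins marked with ubiquitin. Its 20S core is a barrel of stacked alpha and beta rings with the active sites inside, on the beta subunits *Psmb5* (chymotrypsin-like), *Psmb6* (caspase-like) and *Psmb7* (trypsin-like). The 19S cap binds, unfolds and feeds in substrates, while other activators open the core without ATP. Interferon-gamma replaces the active subunits by *Psmb8*, *Psmb9* and *Psmb10*, and this immunoproteasome is known for cutting peptides for MHC class I. In most cells the transcription factor NRF1, encoded by *Nfe2l1*, raises proteasome genes when the proteasome is impaired.

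The levels of the catalytic subunits separated into constitutive genes with high means and immunoproteasome genes of which only *Psmb10* had more than a few reads. For this reason the promoters of both constitutive and induced subunits are shown first, from 250 bases before to 50 bases after the start, for *Psmb5*, *Psmb6*, *Psmb8*, *Psmb9* and *Psmb10*. They come from RefSeq on GRCm38.p6 and are written 5′ to 3′ on the gene's strand. Capitals in *Psmb5* and *Psmb6* mark a match to TGACNNNGC, the core of the antioxidant response element that NRF1 and NRF2 bind. *Psmb8*, *Psmb9* and *Psmb10* held no such match, and neither did the constitutive *Psmb3* and *Psmb4*. No window was found for the constitutive *Psmb1*, *Psmb2* and *Psmb7*. The core stood in 15% of members and in 16.7% of all genes. The windows are chr14:54617946-54618245 (minus strand) for *Psmb5*, chr11:70525107-70525406 (plus) for *Psmb6*, chr17:34197945-34198244 (plus) for *Psmb8*, chr17:34187281-34187580 (minus) for *Psmb9* and chr8:105938343-105938642 (minus) for *Psmb10*.
*Psmb5*: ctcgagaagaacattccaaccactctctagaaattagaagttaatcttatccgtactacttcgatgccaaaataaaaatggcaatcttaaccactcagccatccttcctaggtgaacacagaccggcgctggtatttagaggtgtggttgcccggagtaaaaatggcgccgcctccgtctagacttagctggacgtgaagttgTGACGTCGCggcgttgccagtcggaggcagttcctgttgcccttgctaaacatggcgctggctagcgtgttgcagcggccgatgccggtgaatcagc
*Psmb6*: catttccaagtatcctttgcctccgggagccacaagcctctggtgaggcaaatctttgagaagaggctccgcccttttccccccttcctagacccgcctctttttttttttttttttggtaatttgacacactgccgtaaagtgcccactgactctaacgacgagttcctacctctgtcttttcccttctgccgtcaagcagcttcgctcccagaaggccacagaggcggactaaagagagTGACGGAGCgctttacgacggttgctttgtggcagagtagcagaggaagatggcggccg
*Psmb8*: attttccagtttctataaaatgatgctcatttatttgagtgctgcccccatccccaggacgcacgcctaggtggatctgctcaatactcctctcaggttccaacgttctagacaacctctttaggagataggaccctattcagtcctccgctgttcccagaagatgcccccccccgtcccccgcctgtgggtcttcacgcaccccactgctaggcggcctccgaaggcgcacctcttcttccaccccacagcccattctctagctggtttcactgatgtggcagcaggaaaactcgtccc
*Psmb9*: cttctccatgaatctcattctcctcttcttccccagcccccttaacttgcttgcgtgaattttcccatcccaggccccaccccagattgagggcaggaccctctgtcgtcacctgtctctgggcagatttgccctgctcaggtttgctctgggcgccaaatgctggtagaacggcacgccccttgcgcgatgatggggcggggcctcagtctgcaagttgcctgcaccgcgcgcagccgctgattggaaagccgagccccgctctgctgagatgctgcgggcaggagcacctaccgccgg
*Psmb10*: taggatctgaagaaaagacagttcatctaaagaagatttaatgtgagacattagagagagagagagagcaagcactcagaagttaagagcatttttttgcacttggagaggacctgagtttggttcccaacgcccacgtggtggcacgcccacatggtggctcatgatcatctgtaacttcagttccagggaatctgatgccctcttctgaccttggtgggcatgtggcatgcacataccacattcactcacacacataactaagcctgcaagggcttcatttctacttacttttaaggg

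The RefSeq starts of *Psmb5*, *Psmb6* and *Psmb10* lie 27 bases inside, 10 bases outside and 52 bases inside the gene as GENCODE draws it, whereas those of *Psmb8* and *Psmb9* lie 474 and 434 bases inside. Over all members found, 32 of 43 windows had a start within 100 bases of the gene's start. A promoter from another start could hold other motifs.

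Promoters of 40 of the 48 members were found in RefSeq, in 43 windows, beside promoters of 11206 genes in all. Motifs were searched on both strands, and a gene counted if any of its windows matched. Several windows were held by 3 of the 40 members and by 2194 of the 11206 genes, so the shares rest on unlike numbers of windows. The fixed sequence TGACTCAGC, 1 form of the antioxidant response element, stood in 0 of 40 members and in 0.625% of all genes. The core TGACNNNGC, which that fixed sequence also matches, stood in 6 members (15%), against 16.7% of all genes. These were *Psmb5*, 47 bases before the start, *Psmb6*, 9 bases before it, *Psmc6*, *Psmd12*, *Psmd9* and *Psme4*. The RefSeq start of *Psmd9* lies 58777 bases inside the gene as GENCODE draws it, and those of the other 5 lie within 100 bases of its start. The element of interferon regulatory factors, a pair of GAAA separated by any 2 bases, stood in 5 members (12.5%) and in 3.70% of all genes. Of the 5, *Psme1* encodes an activator subunit that interferon-gamma is known to raise. The others were *Psmb3*, *Psmd4*, *Psmd9*, with the same distant start, and *Psmg4*. *Psmb8*, *Psmb9*, *Psmb10* and *Psme2*, which interferon-gamma also induces, held no such pair. The sites in *Psme1* and *Psmg4* lie after the start. The start used for *Psme1* lies 371 bases inside its gene. The CCAAT box GCCAAT stood in 27.5% of members and 21.3% of all genes, the GC box GGGCGG in 57.5% and 61.9%, and the TATA box TATAAA in 10% and 10.3%. The median GC content of the windows was 57.9% in members and 59.3% in all genes. The ratio of observed to expected CpG was 0.749 at the members' median and 0.698 over all genes, and it was 0.192 in *Psmb10*.

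Most of the proteasome genes were among the most abundant transcripts of these cells. Of the 48 members, 44 reached a mean of 10 normalized counts or more, as did 67.7% of all genes. Among these 44 the median was 9534, against 1082 for the 12914 genes of the table at that level, and the means ran from 526 (*Psmg4*) to 24658 (*Psmd2*). The percentile of a gene is here the share of the table's genes with a lower mean. By that measure 34 of the 48 members lay above the 90th percentile, where 10% of all genes lie, and 24 lay above the 95th. The median percentile was 96.2 for the 31 constitutive subunits of core and cap and 73.0 for the 7 assembly chaperones. Their means added up to 0.930% of the sum over all genes.

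**Figure D1:**
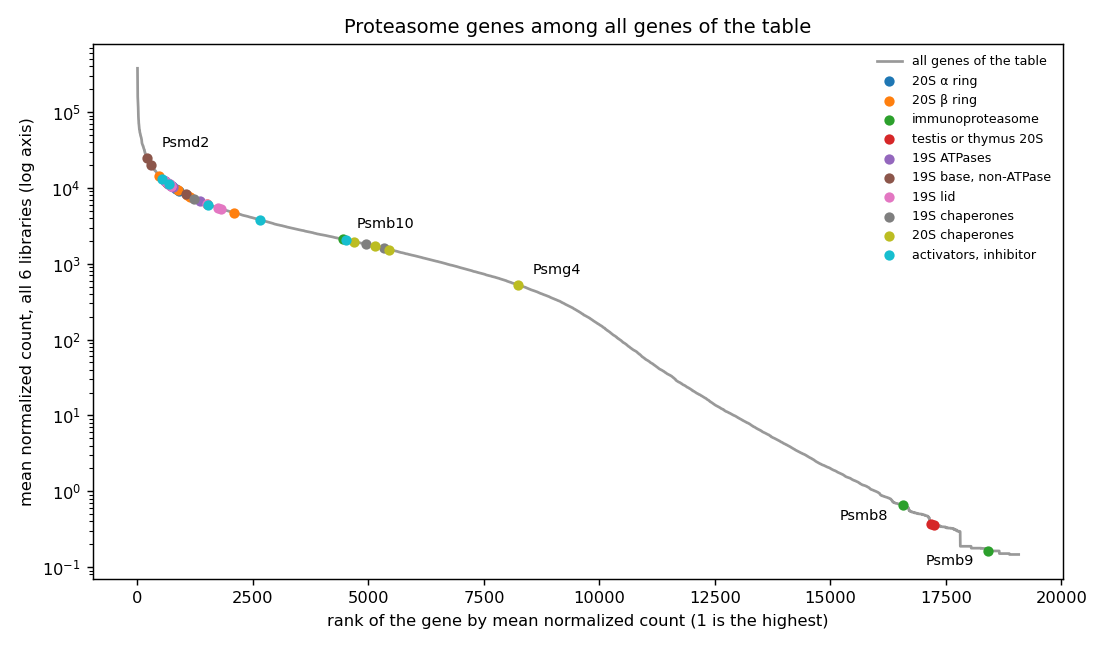
Mean normalized count over all 6 libraries (log axis) of every gene of the table, ordered by rank, with the 48 proteasome genes as points colored by class. The 44 members with a mean of at least 10 lie on the upper part of the curve, from *Psmd2* at 24658 to *Psmg4* at 526, and the other 4 (*Psmb8*, *Psmb9*, *Psma8* and *Psmb11*) lie at its foot, under 1.

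Counting error was small for the 44 members. The lowest of them, *Psmg4*, rested on at least 2798 reads in all, which gives a counting error (1 standard error) of 1.89%, and at the members' median it was 0.444%. These errors cover counting only. The spread between libraries was not analysed here, so the order of members whose values lie close together is not an order tested against replicates.

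Means of different genes can be compared only per length, because a longer transcript yields more fragments. Each mean was therefore divided by the median length of the gene's protein-coding transcripts in GENCODE, in kilobases, and this value is the level per kilobase named below. Over the 44 members, the mean and that length were related weakly (Pearson's r = 0.40, Spearman's rho = 0.46, across genes that are not independent replicates). The median level per kilobase was 197 over the 16161 genes with a length and 475 over those with a mean of at least 10.

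The alpha ring forms the gate of the core. Its 7 subunits had closely grouped means, from 9116 (*Psma6*) to 12280 (*Psma4*), a range of 1.35 times. In between were *Psma1* at 9699, *Psma7* at 10570, *Psma2* at 10711, *Psma3* at 11023 and *Psma5* at 11975. The SD of their log2 means was 0.15, against 0.54 in the constitutive beta ring and 0.31 in the ATPases. Per kilobase the alpha ring was less even, with a median level of 9665, an SD of 0.57 on the log2 scale, and a range from 3679 (*Psma2*) to 10541 (*Psma4*). *Psma2*, the lowest, has a median transcript length of 2911 bases, of which 702 are coding, and the others have lengths of 914.5 to 1852.5 bases. Per kilobase of coding length the 7 again lay close, with an SD of 0.16 on the log2 scale and 1.31 times between the highest and lowest.

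The constitutive beta ring carries the active sites. Its median level per kilobase was 8092, which is 0.837 of the alpha ring's, with an SD of 0.45 on the log2 scale. Of the 3 catalytic subunits, *Psmb7* had a level of 12382 per kilobase, the highest of the members, *Psmb6* 9609 and *Psmb5* 8092. Unscaled, *Psmb6* (7668) and *Psmb5* (6154) lay below the ring's median of 8144. The structural subunits had levels of 12230 (*Psmb3*), 6884 (*Psmb4*), 6596 (*Psmb1*) and 5493 (*Psmb2*) per kilobase. The place of *Psmb1* depended on the length used. Per kilobase of coding length it was the highest of all members at 19041, above *Psmb7* at 17285. With the union of the exons as length it was the lowest of the ring, at 3384. *Psmb2* was the lowest of the ring also as an unscaled mean, at 4719, while *Psmb7* was the highest at 14364.

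**Figure D2:**
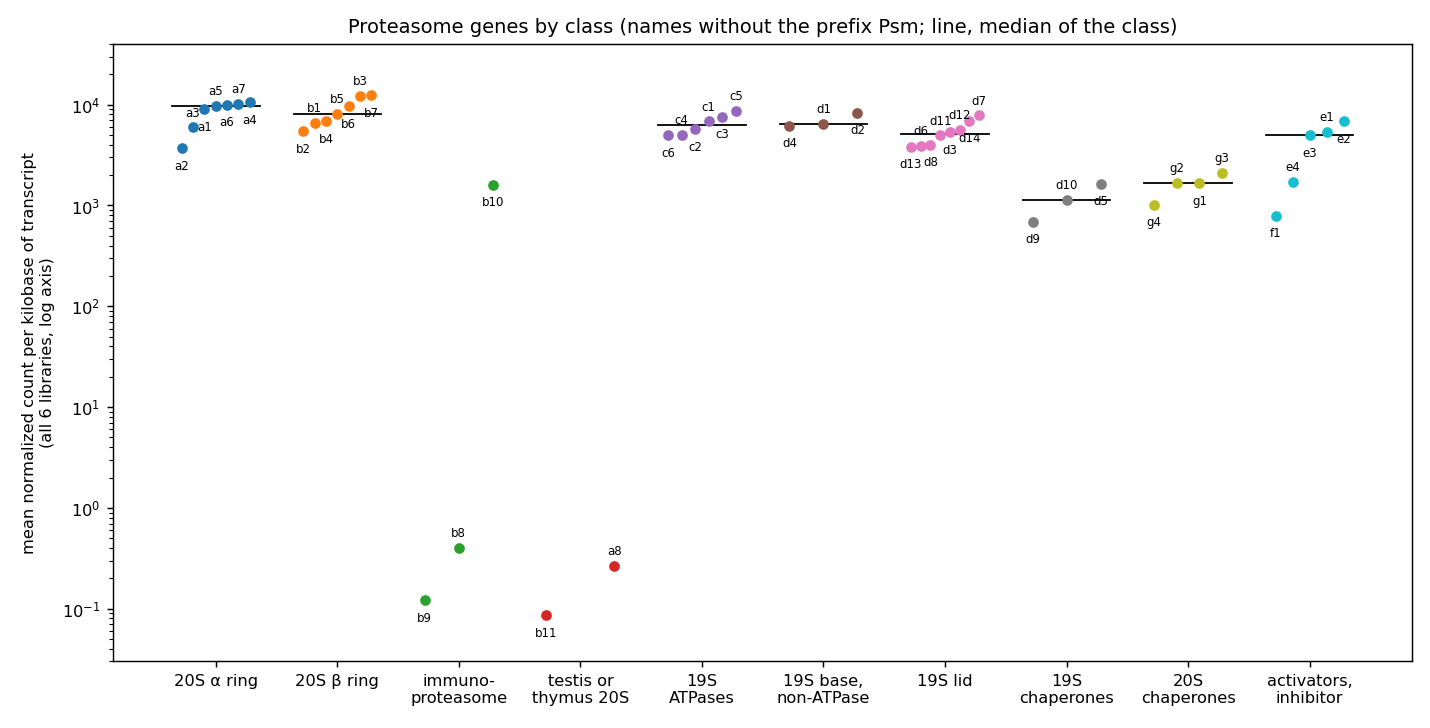
Mean normalized count per kilobase of transcript (log axis) of each of the 48 proteasome genes, by class, with a line at the median of the members with a mean of at least 10. The constitutive core and cap subunits lie between 3679 and 12382, the 7 assembly chaperones between 692 and 2098, and *Psmb8*, *Psmb9*, *Psma8* and *Psmb11* under 1.

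The immunoproteasome genes did not form a uniform group. *Psmb8*, the induced chymotrypsin-like subunit, had a mean of 0.651. *Psmb9*, the induced caspase-like subunit, had a mean of 0.163. *Psmb10*, the induced trypsin-like subunit, had a mean of 2114, at the 76.7th percentile of all genes. Means as low as the first pair can be resolved into reads, because a single read in a single library adds a fixed step that depends on that library's size factor. The 6 steps were found among the lowest values of the table, each held by 149 to 242 genes, and each low member had exactly 1 solution. *Psmb8* had 4 reads in all, 1 in each of 4 libraries (95% Poisson interval 1.09 to 10.2 reads), and *Psmb9* had 1 read in 1 library (0.0253 to 5.57). Neither the library nor its group can be told from the means.

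Set against the constitutive subunit in the same place of the ring, *Psmb10* stood at 13.0% of *Psmb7* per kilobase, that is, 7.68-fold lower. *Psmb8* stood at 0.00494% of *Psmb5* (0.00135 to 0.0127%), and *Psmb9* at 0.00126% of *Psmb6* (3.2e-05 to 0.00700%). Intervals are 95% and count reads only. The level of *Psmb10* was 1613 per kilobase, beside 0.400 for *Psmb8* and 0.121 for *Psmb9*. The 2 genes of restricted particles also had very few reads. *Psma8*, which replaces *Psma7* in germ cells of the testis, and *Psmb11*, which replaces *Psmb5* in the thymic cortex, had 2 reads each in 2 libraries, with means of 0.364 and 0.366 (0.242 to 7.22 reads). Per kilobase this was 0.00263% of *Psma7* (0.000318 to 0.00949%) and 0.00106% of *Psmb5* (0.000129 to 0.00384%). *Psmb11* has a long transcript with a short coding part, and its share of *Psmb5* was 0.00434% per kilobase of coding length and 0.00594% unscaled.

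**Figure D3:**
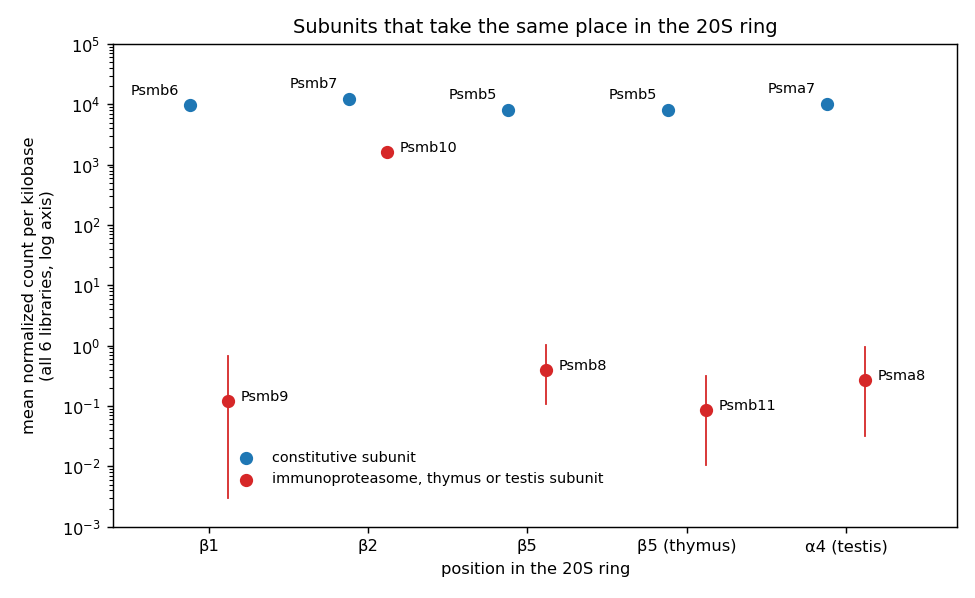
Level per kilobase of transcript (mean over all 6 libraries, log axis) of the constitutive subunit and of the immunoproteasome, thymus or testis subunit that takes the same place in the 20S ring; bars are 95% Poisson intervals of the reads. *Psmb10* lies at 13.0% of *Psmb7*, and the other 4 special subunits lie below 0.01% of their counterparts.

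The 2 immunoproteasome genes that were nearly without reads are neighbours on chromosome 17. *Psmb9* and *Psmb8* lie in the MHC region, on either side of *Tap1*, a transporter gene for MHC class I peptides whose start overlaps that of *Psmb9*. Whether counting used the strand is not given in the sources used here, so a read in the overlap could belong to either. *Psmb9* spans chr17:34181987-34187764 on the minus strand, *Tap1* chr17:34187553-34197225 and *Psmb8* chr17:34197721-34201454, both on the plus strand. *Tap1* had 2 reads in all (mean 0.355), so the 3 adjacent genes held 7 reads. *Tap2*, the other transporter subunit, lies 2072 bases beyond *Psmb8* and had a mean of 380. *Psmb10* lies on chromosome 8 (chr8:105935735-105938444, minus strand), apart from that block. Other genes of the interferon response and class I pathway were present: *Irf1*, a transcription factor that interferon-gamma induces, had a mean of 3899 and *Nlrc5*, the class I activator, 1906. *B2m*, the class I light chain, had 45520, and *Tapbp*, which loads peptide, 10176. *Tap1*, *Tap2* and these 4 genes were chosen after the low values had been seen.

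The 6 ATPases form the ring of the cap that unfolds substrates. Their median level per kilobase was 6269, which is 0.649 of the alpha ring's, with an SD of 0.33 on the log2 scale. Levels per kilobase were 8673 for *Psmc5*, 7584 for *Psmc3*, 6826 for *Psmc1*, 5712 for *Psmc2*, 5010 for *Psmc4* and 4993 for *Psmc6*. The range was 1.74 times, the narrowest of the core and cap classes with more than 3 members. Unscaled, 5 of the 6 had means between 10196 (*Psmc2*) and 12408 (*Psmc3*), and *Psmc4* stood at 6724.

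The further subunits of the base had the highest means of all members, 24658 for *Psmd2* and 20166 for *Psmd1*, the large scaffolds on which substrate carriers dock. *Psmd4*, a receptor for ubiquitin, had a mean of 8258. Both scaffolds have long transcripts, of 2961 and 3112 bases, and per kilobase the 3 genes lay within 1.34 times of each other, at 8328 (*Psmd2*), 6480 (*Psmd1*) and 6200 (*Psmd4*).

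The lid removes ubiquitin from substrates. Its 8 subunits had a median level per kilobase of 5161, which is 0.534 of the alpha ring's. *Psmd7* at 7826 and *Psmd14* at 6950 per kilobase were the highest. They form the pair in which *Psmd14* is the deubiquitinating enzyme. Next were the scaffold subunits *Psmd12* at 5608, *Psmd3* at 5363 and *Psmd11* at 4960 per kilobase, and lowest were *Psmd8* at 4019, *Psmd6* at 3930 and *Psmd13* at 3824. Unscaled, *Psmd13* (5284), *Psmd6* (5451) and *Psmd8* (6133) were again the lowest of the lid, and the other 5 lay between 10678 and 12372.

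Assembly chaperones help build the complex and leave it when it is complete. All 7 had lower levels per kilobase than each of the 31 constitutive subunits of core and cap. The median of the chaperones was 1644 per kilobase and that of the subunits 6826, a ratio of 4.15. Of the chaperones of the core, *Psmg1* and *Psmg2*, which act as a pair on the alpha ring, had levels of 1664 and 1661 per kilobase, and 1843 and 2676 per kilobase of coding length. The other pair had 2098 for *Psmg3* and 1022 for *Psmg4* per kilobase of transcript. Of the chaperones of the cap, *Psmd5* had a level of 1644 per kilobase, *Psmd10* 1131 and *Psmd9* 692. The separation was complete also with the longest transcript or the union of the exons as length. Per kilobase of coding length, and without scaling, 6 of the 7 lay below all 31, and *Psmd5* was the exception, with an unscaled mean of 7228. *Pomp*, a maturation factor of the core that falls outside the symbol rule, had a level of 5380 per kilobase, above all 7 chaperones and within the range of the subunits.

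**Figure D4:**
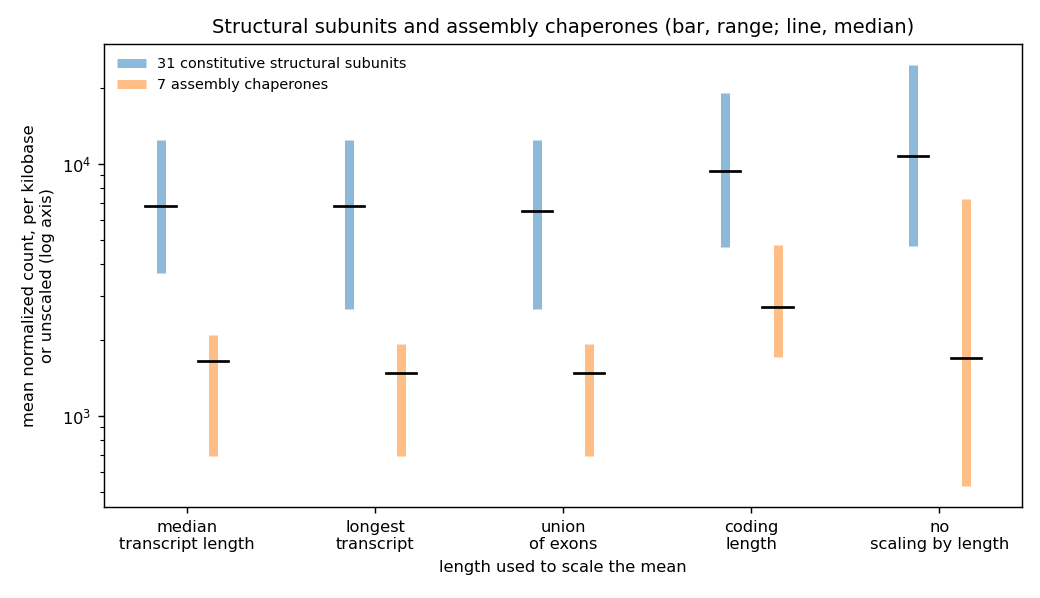
Range (bar) and median (line) of the mean normalized counts of 31 constitutive structural subunits and 7 assembly chaperones (log axis) under 5 choices of length. The ratio of the medians runs from 3.48 with coding length to 6.32 without scaling, and the ranges overlap in these 2 cases only, through *Psmd5*.

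Among members with a mean of at least 10, the activators and the inhibitor differed more than any other class, with 8.63 times between the highest and lowest level per kilobase. *Psme2* and *Psme1*, which together form the ring that interferon-gamma induces, had levels of 6862 and 5326 per kilobase, within the range of the constitutive core subunits. *Psme1* lay below all of those subunits with the longest transcript (3405 per kilobase), with coding length (5348) and as an unscaled mean (3787). They lie 5911 bases apart on chromosome 14, on opposite strands. Both subunits of this activator ring were abundant in cells in which *Psmb8* and *Psmb9* were nearly without reads. *Psme3*, the nuclear activator, had a level of 4991 per kilobase, and *Psme4*, the large activator known as PA200, 1724. Unscaled, *Psme3* was the highest of the class at 13295. *Psmf1*, an inhibitor of the core in vitro, was the lowest with a level of 795 per kilobase. The order within the class changed with the length used. Per kilobase of coding length *Psme3* was the highest at 17448, and *Psme4* (2024) lay below *Psmf1* (2538).

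Reads of some members could be shared with near-identical copies elsewhere in the transcriptome. Of all 100-base stretches of the longest coding transcript, 44.5% were found unchanged in another annotated gene for *Psme2* (its copy *Psme2b*), 27.5% for *Psma5*, 24.9% for *Psmb5*, 20.6% for *Psma3*, 18.0% for *Psmb3* and 17.7% for *Psmg3*. How reads with several positions were assigned is not given in the sources used here, so the levels of these 6 are uncertain. In *Psmb7*, *Psmb10*, *Psmb8* and *Psmb9* no such stretch was found.

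The 48 members lie on 16 chromosomes, 8 of them on chromosome 11 and 6 each on chromosomes 2 and 14. Only 3 pairs lay within 100 kb of each other. Besides *Psmb8* with *Psmb9* and *Psme1* with *Psme2*, these were *Psmb5* and *Psmb11*, 3410 bases apart on opposite strands of chromosome 14. *Psmb5* had a mean of 6154 and *Psmb11* of 0.366.

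Of 23 symbols listed for related genes outside the symbol rule, 20 were found in the table, and all 20 had means of at least 10, with a median of 5822. Subunits of the cap without a Psm symbol were lower per kilobase of median transcript length than all 8 subunits of the lid listed here. *Adrm1*, a ubiquitin receptor, had a level of 3197 per kilobase, and *Shfm1*, the older symbol of the small lid subunit *Sem1*, 3728. Unscaled, *Shfm1* (5488) lay above *Psmd6* (5451) and *Psmd13* (5284). Of enzymes on the cap, the deubiquitinases *Usp14* and *Uchl5* had levels of 3932 and 2233 per kilobase, and the ligase *Ube3c* 1498. The redox protein *Txnl1*, which binds the lid, had 5416. Of the shuttles that bring ubiquitinated proteins, *Rad23b* was the highest at 4758 per kilobase, followed by *Ubqln1* at 2404, *Ubqln4* at 1955, *Ubqln2* at 1377 and *Ddi2* at 162. *Vcp*, the segregase that pulls proteins out of membranes and complexes ahead of the proteasome, was the highest of the list, with a level of 9661 per kilobase, near the alpha ring's median.

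Genes that act on proteasome transcription were present as well. *Nfe2l1*, the gene for NRF1, had a mean of 9610 and a level of 2484 per kilobase, and *Nfe2l2*, the gene for NRF2, 5399 and 2181. NRF1 becomes active after *Vcp* extracts it from the ER, *Ngly1* removes its sugars and *Ddi2* cuts it. *Ngly1* had a mean of 578 and *Ddi2* of 1059, the 2 lowest of the list. Of other factors, *Akirin2*, which imports proteasomes into the nucleus, had a level of 1849 per kilobase. The stress-linked *Zfand2a* and *Zfand5* had levels of 928 and 497 per kilobase. *AI314180*, the older symbol of the proteasome adaptor *Ecpas*, had a mean of 6333 and no length was matched.

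Cytosolic ribosomal proteins, another set of subunits of a large complex, gave a scale for these levels. The 76 with a mean of at least 10 had a median level per kilobase of 34372, which is 3.56 times that of the alpha ring. Their SD on the log2 scale was 1.35, against 0.49 for the 31 constitutive proteasome subunits. Over all 44 members with a mean of at least 10 the SD was 1.10. The ribosomal genes were taken by symbol and not sorted into classes as the 31 were. Many ribosomal protein genes have pseudogene copies, so their spread can include reads lost to copies, which was not tested.

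The labelled cell type was checked against marker genes. Of 12 fibroblast markers, 11 had means of at least 10, from *Dcn* at 12.1 to *Col1a2* at 135155, and *Lum* was at 0.675. Of the epithelial markers found, 2 of 9 reached 10 (*Esrp1* 0.151 to *Grhl2* 76.0), as did 6 of 8 leukocyte markers (*Laptm5* 1.14 to *Lyz2* 534) and 4 of 8 endothelial markers (*Erg* 0.151 to *Cdh5* 107). *Ptprc*, the leukocyte antigen that defines the lineage, had a mean of 11.1. The part of other cells in the levels was not tested, and in bulk RNA fewer expressing cells and less RNA per cell cannot be told apart.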

How the data were processed

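Poly(A)-selected RNA of 3 *Ms4a15* OE and 3 control libraries of MF was sequenced in pairs, with strand kept. Per the study's methods the authors aligned reads with STAR to mm10 with the UCSC annotation, counted them with HTSeq-count and compared groups with DESeq2, whereas the submitters' processing notes name TopHat, Cufflinks, Cuffdiff, HTSeq and DESeq2. Read length is given as 150 bases in the labels and 100 in the methods. Per gene, the authors deposited a signal averaged across the 6 libraries, with each count first divided by its library's size factor. Its other 5 columns hold the authors' own comparison (log2 fold change, its standard error, p-value, adjusted p-value and direction) and were not used. No group was therefore compared with another and no test was run. Single-library values were not used here. Whether the libraries came from separate cultures is not given in the sources used here.

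The 48 members, their classes and all lists were chosen with earlier results of these data known. Every member is named in its class, as is every related gene found, except that 1 gene is not reported here. Of marker lists the lowest and highest are named. *Dcn*, *Ptprc* and the MHC and interferon genes were chosen after their values were seen.

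Size factors were worked out from the 6 lowest repeated values, each 1 read in 1 library, and were 0.887, 0.938, 0.946, 1.02, 1.11 and 1.14, a range of 1.28 times. They cannot be tied to a library. Decoding of low means into reads was tested on simulated data. The sum of all means was about 40991800 normalized counts, the depth of a library of average size. Lengths and positions came from GENCODE M21 on GRCm38, the assembly of mm10, and were found for 84.7% of the genes by symbol or older symbol. Poisson intervals were 95%, counting errors in percent are 1 standard error, and both cover counting error only. A mean of 10 was the minimum for class medians. Promoter sequences came from RefSeq. Of the motifs searched, those other than the antioxidant elements were chosen after seeing the data. The alternatives were other lengths, a minimum mean and other measures of spread. Python 3.11.15, numpy 2.4.6, pandas 2.3.3, scipy 1.17.1 and matplotlib 3.10.9 were used.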

Additional observations from a re-analysis of the deposited data

How the results depend on the processing

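Values of class medians over the alpha ring's median moved with the length used. With the longest transcript they were 0.787 for the beta ring, 0.184 for the immunoproteasome (*Psmb10*), 0.716 for the ATPases, 0.741 for the rest of the base, 0.127 for the chaperones of the cap and 0.389 for the activators. With coding length they were 0.704 for the beta ring, 0.576 for the ATPases, 0.480 for the rest of the base, 0.505 for the lid, 0.182 and 0.148 for the chaperones of the cap and of the core, and 0.351 for the activators. Without scaling they were 0.760 for the beta ring, 0.197 for *Psmb10*, 1.03 for the ATPases, 1.88 for the rest of the base, 0.998 for the lid, 0.168 and 0.151 for the chaperones and 0.563 for the activators. With the union of exons, chosen after seeing the data, they were 0.867, 0.203, 0.742, 0.816, 0.501, 0.137, 0.188 and 0.429 in the same order. The lower level of the cap against the core thus held per length and not without scaling. *Psmb10* over *Psmb7* was 14.9% with coding length and 14.7% without scaling, and *Psmb11* over *Psmb5* 0.00434% and 0.00594%, a comparison added after seeing the data.

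The median of the subunits over that of the chaperones was 4.62 with the longest transcript, 3.48 with coding length, 6.32 without scaling and 4.39 with the union of exons.

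Median percentiles moved to 94.4 (alpha ring), 91.7 (beta ring), 65.6 (*Psmb10*), 94.6 (ATPases), 97.7 (rest of the base), 94.3 (lid), 61.7 and 59.0 (chaperones of cap and core) and 88.1 (activators) when ranked among genes reaching a mean of 10. They moved to 98.2, 97.8, 85.5, 96.9, 97.0 (rest of the base), 79.9, 85.9 and 95.8 per kilobase, with the lid left out of this series because it stayed near 96.2.

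The spread within a class, given as the highest over the lowest member per kilobase, was 2.86 times in the alpha ring, 2.25 in the beta ring, 1.74 in the ATPases and 2.05 in the lid. The SD of log2 means without scaling was 0.154, 0.540, 0.314 and 0.528 in these classes, and per kilobase of coding length it was 0.159, 0.487, 0.306 and 0.521, both chosen after seeing the data. The alpha ring was thus the most or the least even of these 4 classes, depending on the length. The share of members with an antioxidant response element was 0 with the fixed sequence TGACTCAGC and 15% with the core TGACNNNGC. The other 20 values moved by less than their counting or sampling interval. Such an interval covers reads only and does not measure the change with length. Among these values, *Psmb8* over *Psmb5* was 0.00845% with coding length and 0.0106% without scaling, against 0.00494% in the main setting. *Psmb9* over *Psmb6* was 0.00231% and 0.00213%, against 0.00126%.

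No paired analysis was possible because only pooled means were used here. Leaving out a library was not possible for the same reason. Depth limits only the 4 members with 1 to 4 reads, for which absence cannot be told from a low level.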
